A study of Mus musculus with 82 samples.

Results

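Tcf7, Lef1, Satb1, Bach2, Foxp1 and Id3 encode DNA-binding or DNA-binding-inhibiting proteins of naive and stem-like T cells. They were taken by symbol from the count tables as 6 of 21823 genes and followed across 82 mouse T cell libraries. The T cells carry a transgenic receptor for an ovalbumin peptide: CD8 cells in the OT-I strain, CD4 cells in the OT-II strain. Both were transferred into the same recipients and sorted from pooled spleen and lymph nodes. In the prophylactic experiment recipients were given saline, 5 µg plain ovalbumin (OVA) or pGal-OVA, the synthetically glycosylated antigen (here pGal), 1 day after the transfer, and cells were taken 4 days later. Each of these libraries pools 3 mice, and there were 5 per group in 2 labelled batches, except 4 of OT-II cells after OVA. In the therapeutic experiment recipients were immunized under the skin with OVA in complete Freund's adjuvant the day after the transfer, so all its groups, saline included, were immunized. Saline, OVA or pGal followed a month later, again 4 days before collection, with 1 mouse per library and 7 to 10 libraries per group as labelled. The series text gives 5 µg for pGal, whereas the treatment protocol gives the molar antigen equivalent, so the amount of antigen per group is not settled. RNA was amplified with the SmartSeq v4 protocol. Prophylactic strain labels all read C57BL/6, while the number that ends the strain label changes from library to library in the therapeutic experiment.

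TCF-1 (from Tcf7) and LEF-1 are related high-mobility-group proteins that open and maintain the T cell gene programme, and they are high in naive and memory cells and lost in terminal effectors. SATB1 organizes chromatin in developing and resting T cells, and BACH2 and FOXP1 are repressors that hold back effector genes and keep naive cells quiescent. ID3 has no DNA-binding part of its own: it holds E proteins away from their E box sites, is induced by signals from the T cell receptor, and marks long-lived memory precursors, while its relative ID2 marks effectors.

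Antigen was followed by calls for Satb1, Id3 and Lef1 only, all in prophylactic mice. After pGal, OT-II cells had 2.04-fold less Satb1 RNA and 1.60-fold more Id3 RNA than after saline. Neither gene passed against plain OVA in these cells (adjusted p = 0.0502 and 0.070). The Id3 call against saline ended when any of 6 of the 10 libraries was left out. In OT-I cells Id3 was higher after either antigen. Lef1 and Satb1 were lower there after OVA, in calls that a single left-out library could end. Tcf7, Bach2 and Foxp1 passed the test in none of the 12 treatment comparisons. None of the 6 passed in therapeutic mice. Satb1 after OVA in their OT-I cells nonetheless stood at log2 -0.79 (adjusted p = 0.076), against the called -0.33 in prophylactic OT-I cells. Id3 stood at 0.67 there (adjusted p = 0.39), against the called 0.61. The calls therefore do not show that these changes were confined to prophylactic mice. Between the experiments, Lef1, Satb1 and Bach2 were called lower after saline in both cell types of the immunized therapeutic mice than in the prophylactic mice. For Lef1 and Bach2 these differences were larger than any by treatment. For Satb1 they were near its change after pGal in prophylactic OT-II cells (log2 -1.02 in OT-I and -1.13 in OT-II cells, against -1.03). Between the experiments 28.2% of all genes tested were called in OT-I and 10.9% in OT-II cells. Tcf7 was called lower in OT-I cells only, and Id3 was called higher in OT-II cells. A single left-out library could end the Bach2 and Id3 calls in OT-II cells. Immunization cannot be told apart from sorting, pooling of mice and table in this comparison. All calls use an adjusted p under 0.05 (Benjamini-Hochberg over all genes tested) from the quasi-likelihood test of edgeR on the deposited estimated counts, and levels are CPM (counts scaled to library size) with TMM factors computed over all libraries.

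The label was checked first. Cd4 and Cd8a encode the coreceptors that tell the cell types apart. Both fitted the label in all 29 prophylactic libraries, although Cd4 reached 161 CPM in the OT-I library after OVA labelled batch 1, replicate 1, and 206 CPM in that after pGal labelled batch 1, replicate 2. In 11 of 53 therapeutic libraries they went against it. The 6 of these labelled OT-I had 402 to 1444 CPM of Cd4 and at most 2.67 CPM of Cd8a, and the 5 labelled OT-II had at most 4.22 CPM of Cd4 and at least 832 CPM of Cd8a. Those 11 were left out below unless stated, and were not moved to another group. Cd79a, a B cell gene, stood at 50 CPM or more in 2 of 15 prophylactic OT-I, 3 of 14 prophylactic OT-II, 7 of 22 therapeutic OT-I and 13 of 20 therapeutic OT-II libraries. Total counts, in M (mega), were 21.2 M to 68.2 M in prophylactic and 22.6 M to 62.5 M in therapeutic libraries. In such bulk libraries, fewer cells of a type and less RNA per cell cannot be told apart.

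The start-site windows of the 3 genes called after antigen in the prophylactic experiment are printed here to show the sequence around a start of each gene whose RNA level differed. Each runs from 250 bases before to 50 bases after a RefSeq start on GRCm38.p6, with the start nearest the GENCODE M21 gene start chosen. Capitals mark every match, on either strand, to the E box CANNTG, which E proteins bind, to the TCF/LEF site CTTTGAT, to the AP-1 site TGANTCA that BACH2 complexes share, or to the Egr site GCGNGGGCG.
Satb1: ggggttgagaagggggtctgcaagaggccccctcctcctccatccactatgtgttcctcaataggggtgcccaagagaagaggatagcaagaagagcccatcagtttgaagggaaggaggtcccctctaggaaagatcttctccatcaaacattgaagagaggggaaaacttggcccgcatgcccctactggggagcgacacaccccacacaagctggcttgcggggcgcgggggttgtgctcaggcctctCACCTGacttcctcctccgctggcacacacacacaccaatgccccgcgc
Lef1: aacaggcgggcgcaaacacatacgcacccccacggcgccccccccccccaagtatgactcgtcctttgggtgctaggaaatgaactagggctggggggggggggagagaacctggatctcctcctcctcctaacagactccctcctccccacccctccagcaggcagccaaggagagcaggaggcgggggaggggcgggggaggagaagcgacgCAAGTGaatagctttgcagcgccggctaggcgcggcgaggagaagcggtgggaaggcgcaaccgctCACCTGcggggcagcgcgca
Id3: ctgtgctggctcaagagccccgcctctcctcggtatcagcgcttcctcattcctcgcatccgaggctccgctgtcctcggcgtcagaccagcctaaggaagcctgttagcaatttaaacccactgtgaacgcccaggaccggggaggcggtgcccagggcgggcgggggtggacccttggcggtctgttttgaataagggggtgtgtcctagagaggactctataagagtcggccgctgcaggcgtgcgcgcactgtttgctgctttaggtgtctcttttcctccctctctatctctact
The Satb1 window is chr17:51833241-51833540 on the minus strand and holds 1 E box. The Lef1 window is chr3:131110073-131110372 on the plus strand and holds 2. The Id3 window is chr4:136143572-136143871 on the plus strand and holds no match. CANNTG is found in 72.3% of all 32851 RefSeq windows of this length, CTTTGAT in 3.73%, TGANTCA in 7.81% and GCGNGGGCG in 5.55%. None of the 16 windows of the 6 genes contains CTTTGAT or TGANTCA. The Egr letters occur 2 times in 1 window each of Tcf7 and Satb1 and 1 time in 1 of Foxp1, none of them printed above. A match describes the letters only.

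On the scale of RNA per length, Tcf7 was the most abundant of the genes in saline-treated prophylactic mice. Divided by its longest coding transcript (2471 bases), its mean level after saline in the prophylactic experiment was 976 CPM per kb in OT-II and 663 in OT-I cells. Bach2 was the least abundant at 12.6 and 12.4 CPM per kb (8882 bases). Lef1 (182 and 202), Satb1 (198 and 138, or 343 and 238 with its median transcript of 3604.5 bases) and Id3 (156 and 160 CPM per kb) lay between, and Foxp1 had 62.5 and 51.8 with its longest transcript (7177 bases) but 222 and 184 with its median one (2022 bases). The order of the middle genes, Satb1 and Foxp1 above all, therefore depends on the transcript length used, whereas Tcf7 came first and Bach2 last with either length.

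**Figure D1:**
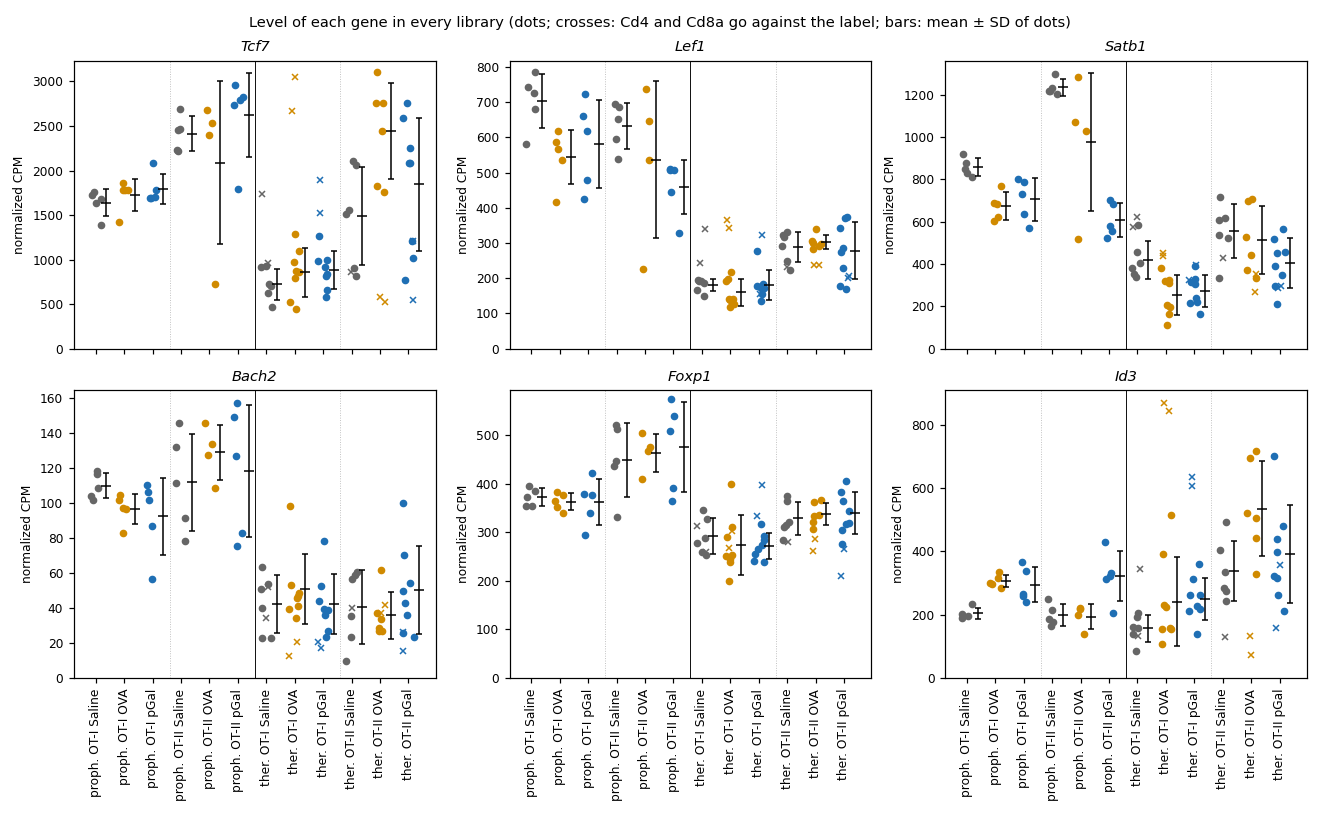
Normalized CPM (vertical axis, from 0) of each gene in every library, by experiment, cell type and treatment (horizontal axis). Dots are libraries that match their label, crosses the 11 that go against it, and bars the mean ± SD of the dots. Lef1 and Bach2 lie lower in all 6 therapeutic groups (right of the solid line) than in all 6 prophylactic groups by their means, and Id3 spreads most in therapeutic cells.

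Ordered by group means, the 12 groups split by experiment for 4 of the 6 genes. The share of all genes that split this way was not computed, so the split is not read as particular to these genes. After saline, 28.2% of 13768 genes were called between the experiments in OT-I and 10.9% of 13441 in OT-II cells. Lef1 and Bach2 had their 6 highest means in the 6 prophylactic groups, with means of 459 to 703 against 160 to 302 CPM for Lef1 and 92.4 to 129 against 35.9 to 51.0 CPM for Bach2. The same split held for Satb1 (610 to 1235 against 252 to 556 CPM) and Foxp1 (362 to 475 against 271 to 339 CPM). Tcf7 instead had its 3 lowest means in therapeutic OT-I cells, at 725 to 880 CPM. Id3 had its 3 highest means in therapeutic OT-II cells, at 339 to 535 CPM. Of the 11 steps between neighbours in each order, only 0 to 2 per gene were wider than the larger SD of the pair: 1 for Tcf7 (below therapeutic OT-II after saline) and Foxp1, 2 for Lef1, Satb1 and Bach2, and 0 for Id3. The highest and lowest group means differed 4.89-fold for Satb1, 4.41-fold for Lef1 and 1.75-fold for Foxp1.

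Between the cell types after saline, 2 of the 6 genes differed in the prophylactic experiment, both lower in OT-I cells, where 20.7% of all 13400 genes tested were called. Tcf7, on chr11:52252371-52283014, was at 1630, 1685 and 1727 CPM in OT-I batch 1 and at 1383 and 1763 in batch 2, and at 2692, 2229.6 and 2468 and then 2216 and 2457 CPM in OT-II cells. The groups did not overlap, and the log2 difference was -0.56 ± 0.08 (SE, adjusted p = 3.2e-04). Satb1 had 814 to 921 CPM in the 5 OT-I and 1204 to 1301 in the 5 OT-II libraries, without overlap, a log2 difference of -0.52 ± 0.06 (adjusted p = 5.2e-05). Both calls held with each single library left out. Foxp1 was lower by 0.26 ± 0.10 on the log2 scale without passing (adjusted p = 0.089), and passed without the OT-II saline library of batch 2, replicate 2 (-0.35, adjusted p = 0.0047). Lef1, Bach2 and Id3 had 95% intervals within -0.35 to 0.30. OT-I and OT-II cells were transferred into the same recipients, and this test treats their libraries as independent.

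In immunized mice 3 of the 6 were lower in OT-I than in OT-II cells after saline, against 7.61% of 13318 genes called. Tcf7 ranged from 464 over a median of 712 to 923 CPM in 6 OT-I libraries and from 814 over 1536 to 2104 in 6 OT-II libraries, which overlap (log2 difference -1.04 ± 0.24, adjusted p = 0.014). Lef1, the closest relative of Tcf7, had 151, 188 and 195 CPM as lowest, median and highest in OT-I and 224, 303 and 331 in OT-II cells, with no overlap (-0.67 ± 0.14, adjusted p = 0.0076). Id3 had 86.4, 160.2 and 204 CPM against 242, 309 and 493.4, also with no overlap (-1.11 ± 0.22, adjusted p = 0.0045). The test again treated the libraries of the cell types as independent, and Satb1, Bach2 and Foxp1 did not pass. These calls rest on the choice of libraries: with all libraries as labelled no gene of the table was called and none of the 6 (adjusted p of 0.66 for these 3), and without the libraries at 50 CPM or more of Cd79a only Tcf7 remained (Lef1 at 0.060 and Id3 at 0.13).

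In immunized OT-I cells 4 of the 6 genes had lower levels than in prophylactic ones after saline, and 0 were called higher, where 28.2% of 13768 genes were called and 14.0% were called lower. Lef1, on chr3:131110471-131224356, was at 727, 742 and 785 and then 581 and 681 CPM in the 2 prophylactic batches and at 151 to 195 CPM in the 6 therapeutic libraries. That 3.85-fold difference (log2 -1.95 ± 0.12, adjusted p = 7.1e-08) was the largest of any of the 6 in any comparison. Tcf7 fell by 1.17 ± 0.16 on the log2 scale (1.2e-04), Satb1 by 1.02 ± 0.14 (1.7e-04) and Bach2 by 1.35 ± 0.25 (adjusted p = 0.0014). For each of these 4 the highest therapeutic library lay below the lowest prophylactic one: 923 below 1383 CPM for Tcf7, 584 below 814 for Satb1 and 63.6 below 102 for Bach2. That describes the libraries that gave the calls and is no further test. Foxp1 (-0.33 ± 0.12, adjusted p = 0.056) and Id3 (204 ± 17.5 CPM in 5 and 157 ± 41.9 CPM in 6 libraries, adjusted p = 0.13) did not pass.

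In OT-II cells 3 of the 6 genes were called lower and Id3 was called higher, against 10.9% of 13441 genes called and 4.17% called lower. Lef1 fell by 1.11 ± 0.14 on the log2 scale (adjusted p = 2.6e-04), from 539 to 694 CPM in 5 prophylactic libraries to 224 to 331 in 6 therapeutic ones. Satb1 fell by 1.13 ± 0.17 (8.7e-04), from 1204 to 1301 to 333 to 718 CPM. Bach2, on chr4:32238804-32586108, fell by 1.44 ± 0.37 (adjusted p = 0.025), from 78.6, 146, 112, 91.8 and 132 CPM in the 5 prophylactic libraries to between 9.64 and 60.5 CPM. None of these 3 pairs of groups overlapped, which describes the libraries that gave the calls and is no further test. Id3, on chr4:136143497-136145755, was higher by 0.80 ± 0.20 (adjusted p = 0.024): 214, 186, 166, 178 and 251 CPM stood against 242 to 493.4 CPM with a median of 309, and only the lowest therapeutic library lay inside the prophylactic range. Tcf7 (-0.68 ± 0.23, adjusted p = 0.069) and Foxp1 (-0.43 ± 0.15, adjusted p = 0.087) did not pass. Whether the difference between experiments was unequal in the 2 cell types was not tested. Immunization, the experiment, sorting into Trizol or into buffer with snap freezing, the number of mice per library and the table cannot be told apart here.

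Bach2 and Id3 in OT-II cells were the less stable of these calls. Without the libraries at 50 CPM or more of Cd79a, Bach2 stood at -1.50 (adjusted p = 0.067) and Id3 at 0.77 (0.086). The Bach2 call also ended without the saline libraries of batch 1, replicate 2 (-1.33), batch 1, replicate 3 (-1.45) or batch 2, replicate 2 (-1.38), with adjusted p of 0.053 to 0.068. The Id3 call ended without any of the 3 saline libraries of batch 1 or replicate 1 of batch 2 (0.73 to 0.82, adjusted p = 0.052 to 0.073), and with all libraries as labelled (0.66, adjusted p = 0.14).

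**Figure D2:**
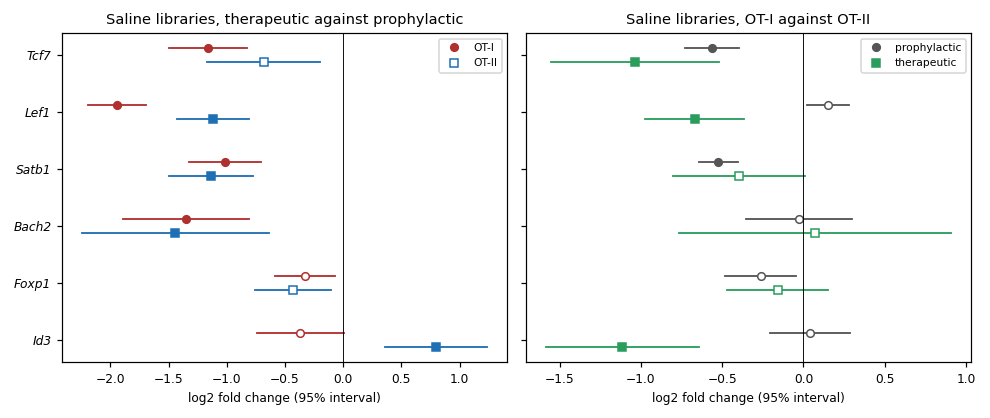
Log2 fold change (horizontal axis) of each gene between saline groups, with its 95% interval. The left panel compares therapeutic with prophylactic libraries of each cell type and the right panel OT-I with OT-II libraries of each experiment, and filled symbols passed the test. Lef1, Satb1 and Bach2 lie left of 0 for both cell types in the left panel, and Id3 lies right of 0 in OT-II cells.

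Counts of other lists between the experiments are read against the same shares of all genes, 28.2% called in OT-I and 10.9% in OT-II cells. Of 12 effector transcription factors, 10 were higher and 1 lower in immunized OT-I cells and 5 were higher and 0 lower in OT-II cells, with medians of 1.77 and 0.99 on the log2 scale against 0.01 and 0.07 over all genes. Id2, the relative of Id3, was higher by 2.80 ± 0.21 in OT-I (adjusted p = 6.9e-07) and by 1.83 ± 0.28 in OT-II cells (9.4e-04). Its mean rose from 112 to 774 CPM and from 97.1 to 339 CPM. Among 18 partners of TCF-1 and LEF-1 (beta-catenin, its cofactors and destruction complex, and the Groucho corepressors), 6 were lower and 0 higher in OT-I cells, including Bcl9 (-2.33 ± 0.40), Tle1 (-1.06 ± 0.26) and Tle4 (-0.59 ± 0.15). In OT-II cells 2 were lower, Tle1 (-2.61 ± 0.66) and Tle2 (-3.53 ± 0.92), and Axin2, a target and brake of beta-catenin signalling, was higher (1.16 ± 0.32). Of 11 AP-1 and small Maf genes, whose proteins share sites or dimers with BACH2, 6 were called higher in OT-I and 3 in OT-II cells, the rest not passing (list medians 0.94 and 0.33), with Fosb at 3.34 ± 0.51 and 3.38 ± 0.79.

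Bach1, the relative of Bach2, was lower in both cell types (-1.37 ± 0.43 and -1.56 ± 0.39). Genes of naive and stem-like cells went both ways, beside the 28.2% and 10.9% of all genes called. In OT-I cells 8 of 20 were lower, with the smallest p for Igfbp4 (-6.49 ± 0.35), Ccr9 (-5.49 ± 0.31) and the lymph node homing receptor Ccr7 (-2.39 ± 0.13), while 6 were higher. In OT-II cells 6 were lower and 2 (Cxcr5 and Slamf6) higher. Cell division genes were higher for 8 of 10 in OT-I and 3 of 10 in OT-II cells.

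Plain OVA given to prophylactic mice changed 3 of the 6 genes in OT-I cells, 2 lower and 1 higher, against 5.39% of 13802 genes called. Lef1 was at 587, 565.5 and 617 CPM in batch 1 and at 536 and 416 in batch 2 after OVA, and 2 of these 5 exceeded the lowest of the saline values given above. Its log2 change was -0.35 ± 0.09 (adjusted p = 0.029). Satb1, on chr17:51736187-51833290, was at 828.5, 852 and 879.8 CPM and then 814 and 921 after saline, and at 771, 621 and 689 and then 682 and 606 after OVA. The groups did not overlap, and the log2 change was -0.33 ± 0.09 (adjusted p = 0.038). Id3 was at 235, 198 and 197 and then 190.4 and 202 CPM after saline, and at 298, 285 and 315 and then 335 and 300.5 CPM after OVA. All 5 OVA libraries lay above all 5 saline libraries, by 1.52-fold (log2 0.61 ± 0.10, adjusted p = 0.0023). Tcf7, Bach2 and Foxp1 did not pass, with 95% intervals between -0.45 and 0.28.

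The Id3 call held with each single library left out (adjusted p of 0.0016 to 0.0089), and the other 2 calls did not. Lef1 lost it without the saline libraries of batch 1, replicate 3 or batch 2, replicate 2, or the OVA libraries of batch 1, replicates 1 or 2, or batch 2, replicate 2 (-0.30 to -0.35, adjusted p = 0.055 to 0.090). Satb1 lost it without 7 of the 10, namely the saline libraries other than batch 1, replicate 1, and the OVA libraries of batch 1, replicates 2 and 3, and batch 2, replicate 2 (adjusted p = 0.057 to 0.12). Without the 2 libraries at 50 CPM or more of Cd79a, Lef1 stood at -0.34 (0.071) and Satb1 at -0.33 (0.10). The summed level of 8 B cell markers was 61.5 to 1438 CPM after saline and 53.9 to 477 CPM after OVA. Within batch 1 the log2 changes of Lef1, Satb1 and Id3 were -0.32, -0.27 and 0.54, and within batch 2 they were -0.40, -0.42 and 0.70.

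After pGal, Id3 alone of the 6 was called in OT-I cells, against 3.35% of 13802 genes. It was at 241, 265 and 259.9 CPM in batch 1 and at 337 and 368 in batch 2, all above the saline libraries, with a log2 change of 0.52 ± 0.10 (adjusted p = 0.012). The batches differed: the change was 0.30 within batch 1 (adjusted p = 0.39) and 0.84 within batch 2. Lef1 had 424 to 723 CPM (-0.28 ± 0.09, adjusted p = 0.088) and Satb1 had 571 to 802 CPM (-0.28 ± 0.09, adjusted p = 0.091). Both passed with DESeq2 (adjusted p = 0.019 for each), and Lef1 also without the pGal library of batch 1, replicate 3 (-0.33, adjusted p = 0.049). In OT-I cells none of the 6, nor any other gene, was called between pGal and OVA (0.0% of 13802 called by edgeR, with 0 of the 6 at an unadjusted p under 0.05 and 0 by DESeq2 and limma voom). The 95% intervals of the 6 differences ran from -0.38 to 0.25. These comparisons share their saline libraries.

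In prophylactic OT-II cells none of the 6 was called after plain OVA, against 0.163% of 14128 genes called (0 of the 6 at an unadjusted p under 0.05, and 0 by DESeq2 and limma voom). That does not show an absence of change. Satb1 stood at -0.34 ± 0.17 (95% interval -0.70 to 0.01, adjusted p = 0.70), near its called change in OT-I cells (-0.33 ± 0.09). The 95% intervals ran from -0.81 to 0.72 in all. Tcf7 was at 2682 and 2538 CPM in batch 1 and at 2401.5 and 723 CPM in batch 2 after OVA. The lowest value belongs to batch 2, replicate 2, in which Cd79a reached 1333 CPM. In the same order of libraries, Lef1 was at 737, 647, 535 and 227 CPM, Satb1 at 1286, 1073, 1031 and 519 CPM, and Id3 at 219.6, 198, 222 and 138 CPM, each again lowest in that library. Bach2 (108, 146, 134 and 128 CPM) and Foxp1 (467, 503, 410.2 and 474 CPM) were not lowest there.

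After pGal 2 of the 6 were called in OT-II cells, Satb1 lower and Id3 higher, against 11.7% of 14128 genes (900 higher and 755 lower). Satb1 was at 1218, 1301 and 1232 CPM in batch 1 and 1219 and 1204 in batch 2 after saline. After pGal it was at 685, 703 and 556 CPM and then 582 and 523 CPM, and the groups lay far apart. The log2 change was -1.03 ± 0.16 (95% interval -1.37 to -0.69, adjusted p = 0.0010), the largest change by treatment among the 6. Id3 was at 332, 324 and 207 CPM in batch 1 and 314 and 429 in batch 2 after pGal, which overlaps the saline range of 166 to 251 CPM in 1 library. Its log2 change was 0.68 ± 0.17 (0.31 to 1.06, adjusted p = 0.022).

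The pGal library with the lowest Id3 is batch 1, replicate 3, where Cd79a was at 1017 CPM and Tcf7 at 1788 CPM, against 2737 to 2956 CPM in the other 4. Lef1 was lowest in it as well, at 329.6 CPM. The summed B cell markers were 50.4 to 680.0 CPM after saline, 54.9 to 6207.5 after OVA and 34.5 to 3390.1 after pGal, and all 8 were detected in each group. Without the libraries at 50 CPM or more of Cd79a, Satb1 stood at -0.96 (adjusted p = 3.7e-05) and Id3 at 0.71 (adjusted p = 0.0021). Lef1 (459 ± 77.5 CPM, n = 5, against 633 ± 65.5 CPM after saline, n = 5) did not pass (-0.45 ± 0.21, adjusted p = 0.20). It did pass without the libraries at 50 CPM or more of Cd79a (-0.38, adjusted p = 0.014) and within batch 1 alone (-0.62, adjusted p = 0.037). Tcf7, Bach2 and Foxp1 did not pass, with 95% intervals between -0.43 and 0.67.

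Against plain OVA neither gene passed in OT-II cells, with Satb1 just over the threshold (-0.69 ± 0.16, adjusted p = 0.0502) and Id3 further from it (0.72 ± 0.19, adjusted p = 0.070), where 1.87% of 14128 genes were called. Both had an unadjusted p under 0.05. Both passed with DESeq2 (Satb1 at 0.0018 and Id3 at 0.0038) and without the libraries at 50 CPM or more of Cd79a (Satb1 at -0.83, adjusted p = 7.8e-04, and Id3 at 0.67, adjusted p = 0.014), while limma voom called 0. Satb1 passed without the OVA library of batch 2, replicate 2 (-0.87, 8.5e-04), and Id3 without the pGal library of batch 1, replicate 3 (0.84, adjusted p = 0.018). In Satb1 the 3 other OVA libraries, at 1031 to 1286 CPM, lay above all 5 pGal libraries.

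For pGal against saline the Satb1 call held with each of the 10 libraries left out in turn (-0.99 to -1.09, adjusted p of 0.0024 to 0.0042). Within batch 2, with 2 libraries per group, it was -1.15 (adjusted p = 0.25), where no gene of the table was called. Id3 lost its call without 6 of the 10: the pGal libraries of batch 1, replicates 1 and 2, and batch 2, replicate 2, and the saline libraries of batch 1, replicates 2 and 3, and batch 2, replicate 1 (0.57 to 0.66, adjusted p = 0.052 to 0.077). Its change was 0.58 within batch 1 and 0.78 within batch 2.

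**Figure D3:**
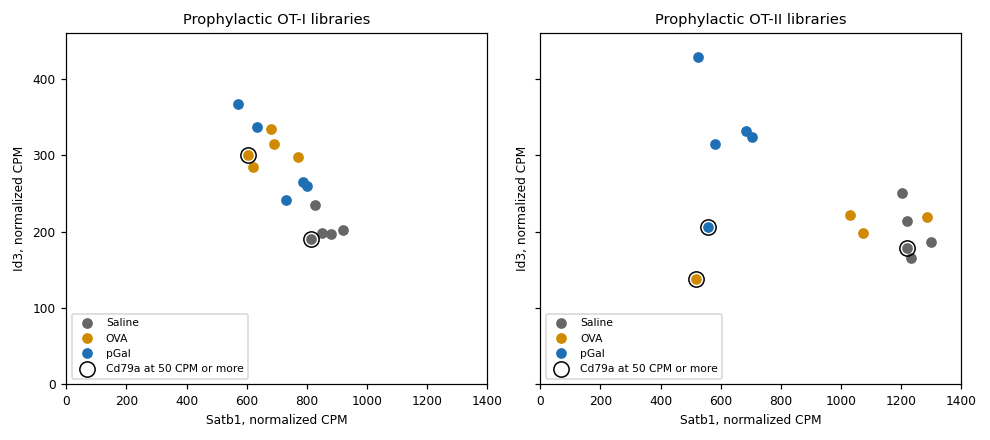
Id3 (vertical axis) against Satb1 (horizontal axis), both in normalized CPM, in each prophylactic library, with OT-I libraries on the left and OT-II libraries on the right. Colours give the treatment and rings mark libraries at 50 CPM or more of Cd79a. In OT-II cells the 5 pGal libraries sit at 523 to 703 CPM of Satb1, apart from the 5 saline libraries at 1204 to 1301 CPM. The 1 OVA library at a like Satb1 level (519 CPM) is ringed and lies below the pGal libraries in Id3 (138 CPM).

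The change of Satb1 after pGal was tested for a difference between the cell types in one model of all prophylactic libraries. It was 0.74 ± 0.18 less negative in OT-I than in OT-II cells on the log2 scale (adjusted p = 0.039), 1 of the 6 called against 1.17% of 14845 genes. That call is close to the threshold. OT-I and OT-II cells were transferred into the same recipients, and the test treats their libraries as independent: with the replicate number as a block the difference was 0.75 (adjusted p = 0.061). Without the 2 OT-I libraries with Cd4 transcripts it was 0.73 (adjusted p = 0.060). It also ended without any of 16 of the 20 libraries (0.69 to 0.79, adjusted p = 0.051 to 0.091). The call held without the OT-I saline or pGal library of batch 2, replicate 2, or the OT-II saline library of batch 1, replicates 1 or 3. For pGal against OVA the differences between the cell types were 0.75 ± 0.19 for Satb1 (adjusted p = 0.068) and -0.79 ± 0.21 for Id3 (0.095), 0 of the 6 called against 0.505% of 14845 genes. Both had an unadjusted p under 0.05, both passed with DESeq2 (0.0064 and 0.013) and 0 with limma voom. Satb1 passed without the OT-II OVA library of batch 2, replicate 2 (0.94, adjusted p = 6.6e-04) and Id3 without the OT-II pGal library of batch 1, replicate 3 (-0.91, adjusted p = 0.014). For OVA against saline 0 of the 6 passed, against 0.0337% of 14845 genes (1 at an unadjusted p under 0.05, 0 by DESeq2 and limma voom). There Id3 had the widest gap, 0.63 ± 0.21 higher in OT-I cells (adjusted p = 0.50).

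**Figure D4:**
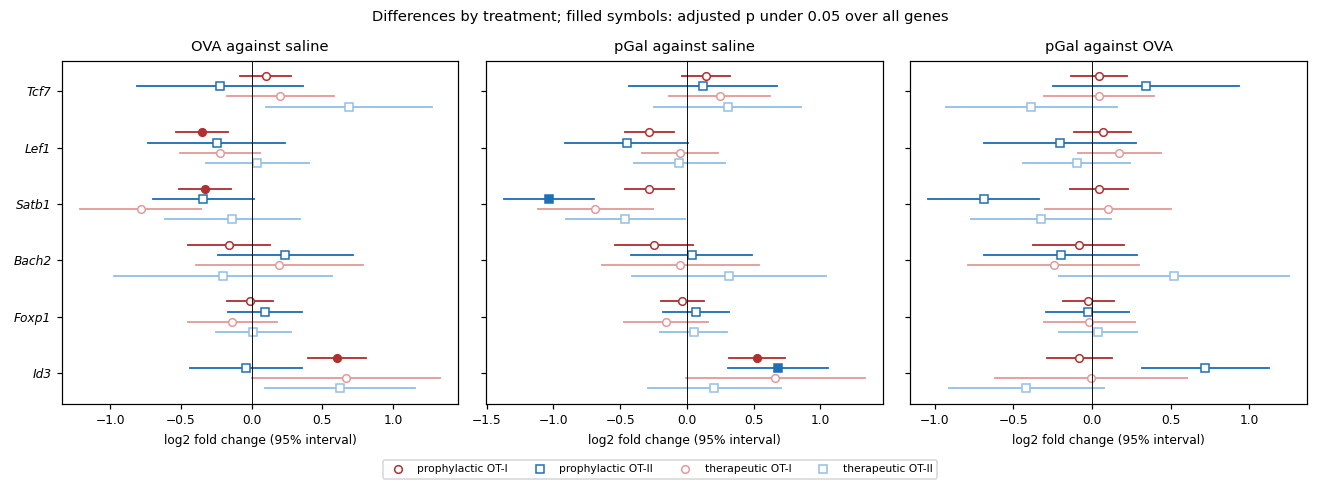
Log2 fold change (horizontal axis) of each gene with its 95% interval for OVA against saline, pGal against saline and pGal against OVA. Symbols and colours give the experiment and cell type, and filled symbols passed the test. The filled symbols are Lef1, Satb1 and Id3 in prophylactic OT-I cells after OVA, Id3 in OT-I cells after pGal, and Satb1 and Id3 in prophylactic OT-II cells after pGal.

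Other lists in prophylactic OT-II cells after pGal are read against the 11.7% of all genes called. Of the 3 E proteins that ID3 binds, Tcf3 (E2A) was higher by 0.35 ± 0.10 (adjusted p = 0.036) and the other two were not called. Among the 18 partners of TCF-1 and LEF-1, Tle3 was higher (1.16 ± 0.16, adjusted p = 5.2e-04), from 71.9 ± 27.6 to 153 ± 13.6 CPM (SD, n = 5 each), and Tle1 (-1.95 ± 0.36) and Tle2 (-2.18 ± 0.62) were lower, so 3 of 18 were called and the list median was -0.05. Tle3 was higher also against plain OVA (0.83 ± 0.17, adjusted p = 0.026). Of 11 AP-1 and Maf genes, 4 were lower: Junb (-1.32 ± 0.30), Jund (-0.66 ± 0.19), Maff (-1.42 ± 0.37) and Nfe2l2 (-0.65 ± 0.10). The list median was -0.65 against 0.04 over all genes.

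Naive and stem-like genes split after pGal in OT-II cells, 4 of 20 higher and 6 lower beside the 11.7% of all genes. Slamf6, which marks stem-like cells, was higher (1.43 ± 0.17), as was Cxcr5 (3.13 ± 0.45), while the cytokine receptor Il7r (-1.40 ± 0.13) and Ly6c1 (-4.21 ± 0.45) were lower. Of 12 effector factors 6 were higher, among them Bhlhe40 (2.48 ± 0.46), Irf4 (1.90 ± 0.34) and Eomes (1.79 ± 0.30), and Prdm1, which encodes the repressor BLIMP-1, was lower (-2.14 ± 0.48). Cell division genes were higher for 4 of 10 and lower for 1, with Mki67 at 15.0 CPM in the median pGal library and 5.30 in the median saline library.

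In prophylactic OT-I cells 5.39% of all genes were called after OVA and 3.35% after pGal. There 1 partner was called by treatment, Tle1, lower after pGal (-1.18 ± 0.27, adjusted p = 0.028). No gene of the AP-1 and small Maf list was called. Batf, an AP-1 gene counted with the effector factors, was higher after OVA (0.37 ± 0.07) and pGal (0.32 ± 0.07). After OVA 5 of 20 naive and stem-like genes were higher and 0 lower, with Myb at 1.86 ± 0.23, Cxcr5 at 1.71 ± 0.27 and Slamf6 at 1.04 ± 0.18, and after pGal 4 were higher, with Myb at 1.78 ± 0.23. Of the effector factors 4 were higher after OVA, with Tbx21 at 2.04 ± 0.27 and Ikzf3 at 1.32 ± 0.18, and 3 after pGal, with Tbx21 at 1.42 ± 0.27. Cell division genes were higher for 8 of 10 after either antigen. No relative of the 6 genes was called in any prophylactic treatment comparison, Id2 included (112 ± 22.1 CPM after saline, 125 ± 25.1 after OVA and 116 ± 11.8 after pGal in OT-I cells, n = 5 each).

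In the therapeutic experiment none of the 6 was called by treatment in either cell type. For OT-I cells the background was 0.686% of 14581 genes for OVA against saline, 0.0% for pGal against saline and 0.0% for pGal against OVA. At an unadjusted p under 0.05 there were 2, 1 and 0 of the 6. Satb1 came nearest: 337, 393 and 584 CPM (lowest, median and highest of 6) after saline, 113, 259 and 383 (of 8) after OVA and 164, 272 and 389 (of 8) after pGal. Its log2 differences were -0.79 ± 0.21 for OVA (adjusted p = 0.076) and -0.69 ± 0.21 for pGal (adjusted p = 0.55). For OVA it passed with DESeq2 (0.0487) and limma voom (0.0491), the other results being 0 by both tools. Id3 was 0.67 ± 0.32 higher after OVA (0.39) and 0.66 ± 0.32 after pGal (adjusted p = 0.76), with 86.4 to 204, 106 to 515 and 140.5 to 361 CPM after saline, OVA and pGal. The groups overlapped for each of the 6 genes.

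For OT-II cells the background was 1.54% of 14244 genes for OVA against saline, 0.00702% for pGal against saline and 0.0% for pGal against OVA, with 2, 1 and 0 of the 6 at an unadjusted p under 0.05 and 0 by DESeq2 and limma voom. Tcf7 was at 814, 1536 and 2104 CPM after saline (lowest, median and highest of 6), 1762, 2603 and 3101 after OVA (of 6) and 770.4, 2085 and 2759 after pGal (of 8). Its log2 difference for OVA was 0.69 ± 0.28 (adjusted p = 0.24). Id3 was at 242 to 493.4, 329 to 716 and 212 to 701 CPM, 0.62 ± 0.26 higher after OVA (adjusted p = 0.24). Bach2 was at 26.7 to 62.0 CPM after OVA and 23.7 to 100.2 after pGal (0.52 ± 0.35, adjusted p = 0.69). Id2, in contrast to Id3, was called lower after OVA (-1.37 ± 0.28, adjusted p = 0.015), at 134 ± 24.9 CPM (n = 6) against 339 ± 148 CPM after saline (n = 6). Of the naive and stem-like genes Cxcr5 was higher after OVA (1.81 ± 0.34) and 4 of 20 were lower, with Il7r at -1.52 ± 0.27.

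Cd4 varied among these OT-II libraries, and Tcf7 went with it from library to library. The means of Cd4 were 729 ± 308 CPM after saline, 1200 ± 134 after OVA and 850.03 ± 439 after pGal, and neither Cd4 nor the other gene of the CD4 lineage list was called in the 3 treatment comparisons. Over the 20 libraries, on log2 scales, Pearson's r was 0.94 and Spearman's rho 0.90, each with a permutation p of 1e-05, the smallest that 100000 permutations can give, and 6e-05 adjusted over the 6 genes. Without the 2 libraries farthest from the median of Cd4 r was 0.91. Within treatments r was 0.98 after saline (n = 6), 0.69 after OVA (n = 6) and 0.96 after pGal (n = 8). Lef1 followed too (r = 0.85, rho = 0.74, adjusted permutation p = 1.5e-04 and 0.0011, and r = 0.80 without those 2 libraries). Within treatments r of Lef1 was 0.88 after saline, 0.43 after OVA and 0.93 after pGal. Satb1 had r = 0.59 (adjusted permutation p = 0.013) but rho = 0.34 (0.22), with r of 0.71 after saline, -0.27 after OVA and 0.97 after pGal. Bach2, Foxp1 and Id3 did not pass, with r of 0.23, 0.44 and 0.35. The 5 libraries lowest in Cd4, at 239 to 489 CPM, were all among the 13 of 20 at 50 CPM or more of Cd79a. All 8 B cell markers were detected in each group, with summed levels of 115 to 614 CPM after saline, 107 to 544 after OVA and 108 to 577 after pGal. The summed level of the 2 T cell markers tested was 890.3 to 2148 CPM, 1611 to 2648 and 678 to 2353 in the same order. The part of these markers and of the Cd4 level in the Tcf7 values was not tested. The permutations shuffled all 20 libraries together, without regard to treatment. How many other genes follow Cd4 as closely was not computed. The permutation p-values therefore do not show that the relation is particular to Tcf7 or Lef1.

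**Figure D5:**
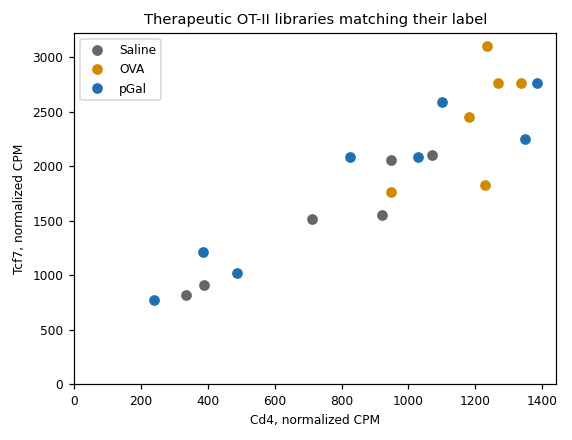
Tcf7 (vertical axis) against Cd4 (horizontal axis), both in normalized CPM, in the 20 therapeutic OT-II libraries that match their label, coloured by treatment. Libraries low in Cd4 are low in Tcf7 after saline and pGal, and the 6 OVA libraries all have at least 947 CPM of Cd4.

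In the 11 libraries against their label, the medians of Tcf7 and Id3 lay on the side of the coreceptor gene that was high. The 6 labelled OT-I, in which Cd4 is high, had Tcf7 at 962 to 3050.4 CPM with a median of 1819.5 and Id3 at 134 to 869 with a median of 621. The 5 labelled OT-II, in which Cd8a is high, had Tcf7 at 525 to 1207 with a median of 584 CPM and Id3 at 71.9 to 358 with a median of 132. For comparison, the libraries that match their label had group medians of 712 to 878 CPM of Tcf7 in OT-I and 1536 to 2603 in OT-II cells. Their group medians of Id3 were 160 to 245 CPM in OT-I and 309 to 514 CPM in OT-II cells.

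Genes with the pattern most like each of the 6 were found by Pearson's r of mean log2 levels over the 12 groups, among 8687 genes at a mean of 10 CPM or more. Among the nearest were Cept1, Cytip and Dcaf11 for Tcf7 (r = 0.98, 0.97 and 0.96), Fntb and Kat6a for Lef1 (0.99 and 0.98) and Trub1, Cdip1 and Wdr12 for Satb1 (0.98, 0.97 and 0.97). For Bach2 they were Tet1, Sesn1 and Nedd4l (0.98, 0.98 and 0.97), for Foxp1 Tmem206, Ets2 and Cant1 (0.97, 0.97 and 0.97), and for Id3 Tnfaip8, Ndfip1 and L3mbtl3 (0.94, 0.91 and 0.91). Among the 6 themselves Lef1 and Satb1 were most alike (r = 0.92), and Id3 had r of -0.31 with Bach2, -0.13 with Satb1, 0.03 with Lef1 and 0.02 with Foxp1. The 12 points share 2 experiments and a common scale, so these values are descriptions.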

How the data were processed

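The authors deposited 3 tables of estimated counts for protein-coding genes. The submitters' processing notes name bcl2fastq, kallisto 0.46.1 and GRCm38, while the step from transcripts to genes is not stated. All values were whole numbers. The 21823 genes shared by the tables were used and 77 others left out. Strand is not stated for the counting, so reads of antisense transcripts over exons of Lef1, Satb1 and Bach2 cannot be told from the genes' own. Exons of Foxp1 share 300 bases with another coding gene model of the same strand. Low counts were removed with filterByExpr and the rest fitted, after TMM scaling, with the robust quasi-likelihood test of edgeR 4.0.16 in R 4.3.3, with a batch term in prophylactic fits. Therapeutic libraries whose Cd4 and Cd8a went against the label were left out. DESeq2 1.42.0, limma 3.58.1 (voom), other scaling and filtering, a replicate block, single batches and left-out libraries were alternatives. The fits were tested on simulated counts. Intervals are 95%. Reads were amplified and carry no molecular identifiers, so depth describes counting error only. Nothing in the labels says that the prophylactic pools shared no mice, so their p-values measure the spread between these libraries, which may be technical. Therapeutic libraries hold 1 mouse each, so p-values there measure the spread between libraries of single mice, technical spread included.

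The 6 genes and the other lists were chosen with earlier results of these data known. Genes of other lists are named only where called, up to 4 per list and comparison by smallest adjusted p, and levels of Id2, Tle3 and Mki67 were added after their values were seen. Promoter windows come from RefSeq and gene positions from GENCODE M21. Some genes that these rules would name are not reported here.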

Additional observations from a re-analysis of the deposited data

Results flagged for a closer look

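A library stood far from the others of its group in 9 of the 72 groups of libraries examined for the 6 genes, where chance flags about 1 in 20. That rate is for independent groups. The same libraries recur here across the 6 genes, so the count is not read as an excess over chance. Tcf7 was lowest, far below the others, in 3 prophylactic libraries with 50 CPM or more of Cd79a: OT-I after OVA, batch 2, replicate 2 (1419 CPM, others 1776 to 1864), OT-II after OVA, batch 2, replicate 2 (723 CPM, others 2401.5 to 2682) and OT-II after pGal, batch 1, replicate 3 (1788 CPM, others 2737 to 2956). Tcf7 was highest, far above the others, in the OT-I library after pGal, batch 1, replicate 2 (2081 CPM, others 1694 to 1784), which is also the one with 206 CPM of Cd4.

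Lef1 was at 277 CPM in the therapeutic OT-I library after pGal, replicate 1 (others 136 to 182). Satb1 was at 1301 CPM in the prophylactic OT-II library after saline, batch 1, replicate 2 (others 1204 to 1232). Bach2 was at 98.6 CPM in the therapeutic OT-I library after OVA, replicate 9 (others 34.3 to 53.4), and at 62.0 CPM in the OT-II library after OVA, replicate 2 (others 26.7 to 37.5). Id3 was at 235 CPM in the prophylactic OT-I library after saline, batch 1, replicate 1 (others 190.4 to 202).

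The Satb1 change after pGal against saline differed between prophylactic OT-I and OT-II cells by a log2 value of 0.74 in an interaction test (adjusted p from edgeR 0.039). That call is close to the threshold. It ended without any of 16 of the 20 libraries (adjusted p from edgeR up to 0.091) and with the replicate number as a block. The test treats libraries of the 2 cell types as independent, although the cells shared recipients.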

How the results depend on the processing

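Counts of the 6 genes called moved by over 1.5 times in 55 of 283 recomputed values. For OVA in prophylactic OT-I cells the 3 calls became 1 with the replicate block, without libraries rich in B cell transcripts and in batch 1 alone, and 0 in batch 2 alone (1 to 3 with a library left out). For pGal in OT-I cells 1 call became 3 with DESeq2 and 0 in batch 1 alone (1 to 2). For pGal in OT-II cells 2 became 0 in batch 2 alone (1 to 2), and against OVA 0 became 2 with DESeq2, 2 without B-rich libraries and 1 in batch 1 alone (0 to 1). Therapeutic OT-I cells after OVA went from 0 to 1 with DESeq2 and 1 with voom. Between cell types after saline, 2 became 0 in batch 2 alone (prophylactic, 2 to 3), and 3 became 1 without B-rich libraries and 0 with all libraries as labelled (therapeutic). Between experiments in OT-II cells 4 became 2 without B-rich libraries (2 to 3). The difference between cell types in the pGal change went from 1 to 0 with the replicate block, in batch 2 alone and without OT-I libraries containing Cd4 (0 to 1), and for pGal against OVA from 0 to 2 with DESeq2, without B-rich libraries and in batch 1 alone (0 to 1). The causes were not tested, but batch 2 has 2 libraries per group.

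Of the single values with a call in some setting or a change of at least 0.5 in size, 488 kept direction and side of the threshold, 30 passed it, 68 lost it and 2 reversed: Bach2 in therapeutic OT-II cells, pGal against OVA, from 0.52 to -0.11 with the replicate block, and the Lef1 difference between cell types for pGal against OVA, from 0.29 to -0.38 in batch 2 alone. None of these 4 values passed the test. Of the other 1110 recomputed values, none called, 126 had another sign.

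Counts over all genes moved too: DESeq2 called 1356 for OVA and 1124 for pGal in prophylactic OT-I cells (744 and 463 with edgeR) and 910 for pGal against OVA in OT-II cells (264), while the replicate block left 494, 242 and 49. The labels do not say that a replicate number marks a shared mouse or pool. Between treatments of a cell type, deviations of same-numbered libraries correlated over 0.1 in 6 of 28 prophylactic and 11 of 28 therapeutic pairs. Between OT-I and OT-II of a treatment they did so in 10 of 14 (median r 0.20) and 17 of 19 (median 0.28), and 5 same-numbered pairs go against both labels. Whether those libraries share mice is not given. Therapeutic groups have over 5 libraries and none was left out singly.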
